A study of Mus musculus with 8 samples.

Results

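ATP-binding cassette (ABC) transporters were followed across 4 groups of mouse heart samples. The members were all genes whose array name is Abc, a subfamily letter from a to g, and a number with or without a final letter. They came to 50 of the 35019 gene names on the array, read by 74 probes. RNA of 8 samples, 2 per group, was hybridised to 1-colour Agilent arrays that share 1 slide. All mice were C57BL/6. The CD45-negative cells were primary c-kit+/CD45- cells sorted from explants of the left atrial appendage, a muscular sac beside that atrium, which had been digested with 0.25% trypsin. The CD45-positive cells were primary c-kit+/CD45+ cells from the same tissue, released with 0.05% trypsin. Both digestions also held 0.1% collagenase D and were run 3 times for 5 min. Passage-8 cells were grown from the c-kit+/CD45+ cells to the 8th passage. The left ventricle group was biopsied ventricular wall. Cells came from mice 8 to 12 weeks old and ventricle from mice 12 weeks old. Trypsin strength went with the sort gate, and the cells and the ventricle were extracted with different RNA reagents, so in those comparisons the handling and the cell type cannot be told apart. All cells also derive from the atrium, so against ventricle the heart chamber cannot be told apart from these either.

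ABC transporters are membrane proteins that use ATP to move a substrate across a membrane, usually outward from the cytoplasm or into an organelle. Subfamilies A and G move mainly lipids and sterols, B and C move drugs, peptides and conjugates, D serves peroxisomes and lysosomes, and E and F are soluble proteins of translation that keep the ATPase domains but move nothing. Some members are known for marking cells. Abcg2 and the P-glycoproteins Abcb1a and Abcb1b pump out the dye Hoechst, which defines the side population used to enrich progenitor cells in bone marrow and heart. Abca1 and Abcg1 export cholesterol from macrophages, and Abcc9 is the regulatory subunit of the ATP-sensitive potassium channel of cardiac and smooth muscle.

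Values are log2 of the processed spot signal relative to the 75th percentile of its array, and are compared between groups within a gene. The 75th percentile signal ranged from 425.9 to 976.5 and 51.5% to 69.9% of spots were well above background. The 2 CD45-negative arrays differed most: over genes above background on both, the median gap between replicates was 0.451 log2 units, against 0.117 for the CD45-positive pair, 0.0935 for the passage-8 pair and 0.301 for ventricle. The labels do not say that replicates came from separate animals or cultures, so every p-value measures only how far these samples spread, which can be technical variation. Ptprc encodes CD45 and was at 2.04 and 1.93 on CD45-positive arrays and at most -2.33 on every other array. Kit, the gene of c-kit, was not well above background on CD45-negative replicate 1 and stood at -1.55 on replicate 2. The sort marker thus did not agree between those 2 arrays. On CD45-positive arrays Kit was at -3.57 and -3.33, below unsorted ventricle at -1.48 and -2.48. Of 10 macrophage markers, all were above background in CD45-positive cells, with a summed linear level (signal over the 75th percentile) of 938 and 924. The same sum was 4.02 on CD45-negative replicate 1, 36.5 on CD45-negative replicate 2, 7.71 to 7.77 in passage-8 cells and 36.8 to 44.5 in ventricle. The sum of 8 cardiomyocyte markers was 3640 to 4370 in ventricle and 2.82 to 7.45 in the cells. In these bulk samples fewer cells of a type and less RNA per cell cannot be told apart.

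Of the 50 members, 30 were well above background on all 8 arrays and 5 on none (Abcg8, Abcc2, Abca13, Abca14 and Abcb5). A test needed signal well above background on the 2 arrays of either group compared, which kept 40 members in some comparison. It passed at a limma adjusted p (Benjamini-Hochberg, over all genes tested) under 0.05 with a log2 difference of at least 1. At least 1 comparison was passed by 32 members, 18 of them between cell groups. Among those 32, the highest group mean was in ventricle for 17, in CD45-positive cells for 8, in passage-8 cells for 4 and in CD45-negative cells for 3. The counts in this paragraph were not made over all genes, so they show no trait particular to the members. The choice of members by name fixed none of these directions, but the background filter bore on some. Abca4, Abca6 and Abca12 were well above background on both arrays only in ventricle, and were tested only against it. Abcg3 and Abcd2 were likewise tested only through their signal in CD45-positive cells, and Abcg5 through that in passage-8 cells. Their directions are no separate evidence.

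Between CD45-negative and CD45-positive cells 8 of 36 tested members passed (22.2%, where 21.7% of all genes tested passed), 2 higher and 6 lower in CD45-negative cells. The members' share was near that of all genes. Among the lower calls, Abcg3 entered the tests through CD45-positive signal alone. Passage-8 cells differed from CD45-positive cells in 13 of 37 members (35.1%, against 23.5% of all genes), 3 higher and 10 lower. The lower calls were 10 of 37 where 10.9% of all genes were lower. Among them, Abcg1, Abca8a, Abcg3 and Abcd2 entered the tests through CD45-positive signal alone. Among the higher calls, Abcg5 entered through passage-8 signal alone. Passage-8 against CD45-negative cells gave 10 of 35 (28.6%, against 13.9%), 3 higher and 7 lower, where 6.97% of all genes were higher and 6.97% lower. Of the lower calls there, Abcg1, Abca8a and Abcc9 entered through CD45-negative signal alone. Of the higher calls, Abcg5 again entered through passage-8 signal alone. On the authors' value table the split of passage-8 against CD45-negative cells was 6 higher and 8 lower.

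Against ventricle, 12 of 37 members passed in CD45-negative cells (32.4%, against 39.5% of all genes), 21 of 39 in CD45-positive cells (53.8%, against 38.1%) and 22 of 38 in passage-8 cells (57.9%, against 39.2%). Most of these were lower in the cells: 11 of 12, 15 of 21 and 18 of 22. The lower calls include Abca12 in all 3 groups, and Abca4 and Abca6 in CD45-positive and passage-8 cells. Those genes entered the tests through their ventricle signal alone. So did Abcg1, Abca8a and Abcc9 in passage-8 cells. The higher calls include Abcg3 in CD45-positive and Abcg5 in passage-8 cells, which entered through the cells alone. Over all genes, 19.2%, 19.8% and 18.8% of those tested were lower and 20.3%, 18.3% and 20.3% higher. The median log2 difference of the members was -0.43, -0.34 and -1.08, against 0.06, -0.02 and 0.05 over all genes tested. Centring the arrays on genes above background everywhere gave 1 higher and 20 lower members in passage-8 cells against ventricle, in place of 4 and 18. The 3 comparisons share the ventricle arrays. Abca12, Abcb1a, Abcb6, Abcb8, Abcb9, Abcc8 and Abcc9 were lower in all 3 cell groups and 0 members were higher in all 3. The share of all genes lower or higher in all 3 was not computed, so this split is not set against theirs.

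**Figure D1:**
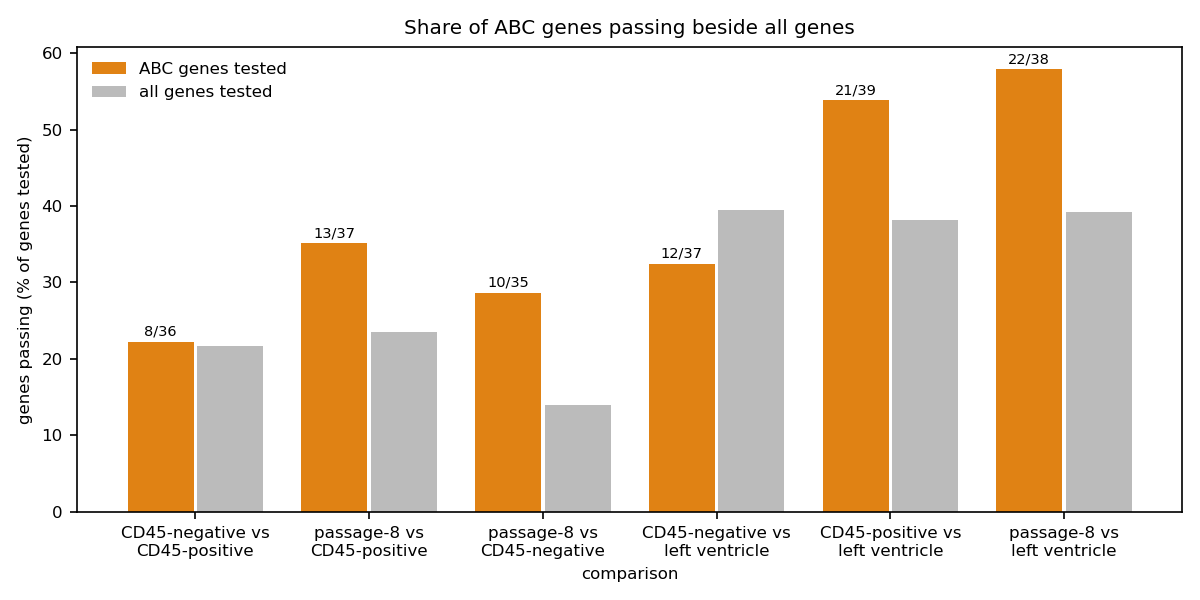
Share of tested genes that passed in each of the 6 comparisons (vertical axis, percent of genes tested), for the ABC members (orange, with the count over the number tested) and for all genes (grey). The members' share lies near that of all genes in CD45-negative against CD45-positive cells (22.2% and 21.7%) and above it in passage-8 cells against ventricle (57.9% and 39.2%).

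**Figure D2:**
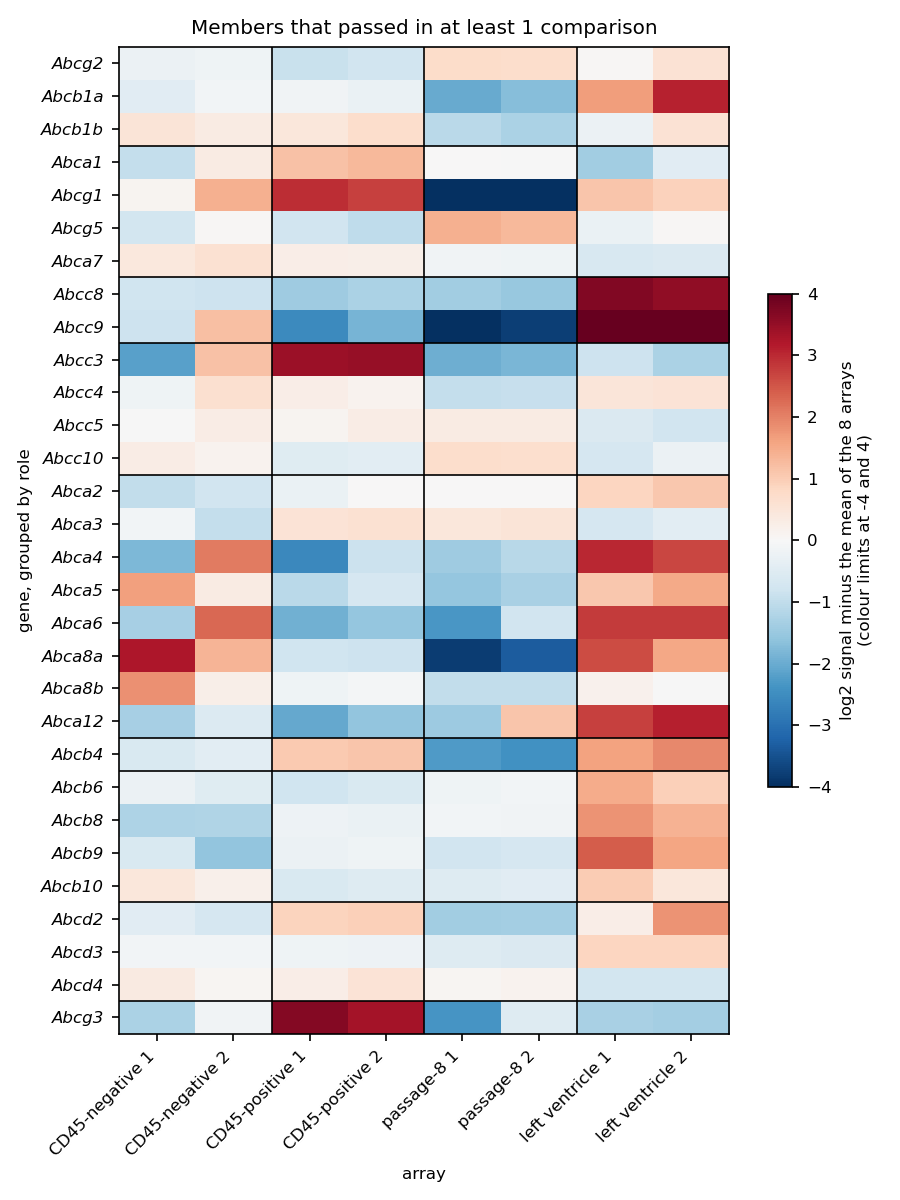
Of the members that passed in at least 1 comparison, 30 (rows, grouped by role) on the 8 arrays (columns), as log2 signal minus the gene's mean over the arrays; colours stop at -4 and 4. Red blocks of Abcc8, Abcc9 and the mitochondrial subfamily B lie in the ventricle columns, and those of Abcc3 and Abcg3 in the CD45-positive columns.

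The side population pumps did not move together. In passage-8 cells Abcg2 was 2.91-fold higher than in CD45-positive cells, while Abcb1b was 3.41-fold lower and Abcb1a 3.16-fold lower. Between the primary cell groups none of the 3 genes passed. Their promoters are shown first because the 3 pumps share a dye substrate and differed in opposite directions between passage-8 and CD45-positive cells. The bases are the 250 before the RefSeq start site in GRCm38.p6, 5' to 3' on the gene's strand. Capitals mark 3 short motifs read on both strands: the GC box, spelled GGGCGG, the CCAAT box, whose name is its spelling, and the full cyclic AMP response element (CRE), spelled TGACGTCA.

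Abcg2, chr6:58640296-58640545, plus strand: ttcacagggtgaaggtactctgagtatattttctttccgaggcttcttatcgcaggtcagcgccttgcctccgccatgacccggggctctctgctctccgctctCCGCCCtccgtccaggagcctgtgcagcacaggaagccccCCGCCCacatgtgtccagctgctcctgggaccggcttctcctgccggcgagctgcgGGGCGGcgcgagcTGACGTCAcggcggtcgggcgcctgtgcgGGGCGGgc
Abcb1a, chr5:8566841-8567090, plus strand: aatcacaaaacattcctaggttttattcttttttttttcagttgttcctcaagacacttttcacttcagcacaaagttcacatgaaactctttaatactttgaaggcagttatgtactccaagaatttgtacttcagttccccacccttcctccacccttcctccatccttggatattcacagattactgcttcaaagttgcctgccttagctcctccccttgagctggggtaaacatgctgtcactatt
Abcb1b, chr5:8797897-8798146, plus strand: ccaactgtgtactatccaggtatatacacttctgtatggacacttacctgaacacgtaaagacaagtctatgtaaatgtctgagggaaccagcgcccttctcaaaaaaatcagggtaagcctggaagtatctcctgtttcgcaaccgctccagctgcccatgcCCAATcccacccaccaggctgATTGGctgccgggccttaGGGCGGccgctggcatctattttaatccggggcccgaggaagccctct

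Of 3 windows that RefSeq gives for Abcg2 this one lies farthest downstream and is richest in CpG, with 23 CpG dinucleotides and 67.6% G and C. It holds 4 GC boxes and a full CRE, which 1.55% of the 32851 mouse windows of this length hold. Abcb1a has 0 CpG dinucleotides and none of these motifs. Abcb1b, its neighbour, has 9 CpG dinucleotides, 1 GC box and 2 CCAAT boxes. GC boxes occur in 32.7% of all windows and CCAAT boxes in 33.8%. Windows were found for 38 of the 50 members. The 9 motifs searched were chosen after the windows had been read, and a match describes letters only.

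Abcg2, the efflux pump of the side population, stood at 2.55 and 2.60 on CD45-negative arrays, 1.89 and 2.01 on CD45-positive arrays, 3.5 and 3.48 on passage-8 arrays and 2.81 and 3.35 in ventricle. Passage-8 arrays were the highest and CD45-positive arrays the lowest, and no 2 groups overlapped. The rise from CD45-positive to passage-8 cells was 1.54 log2 units (SE 0.24, n = 2 per group, limma adjusted p = 0.00791). CD45-positive cells lay 2.20-fold below ventricle (log2 difference -1.14, SE 0.24, limma adjusted p = 0.0129). The neighbouring steps did not pass: CD45-negative minus CD45-positive was 0.63 (adjusted p = 0.114, limma), passage-8 minus CD45-negative 0.92 (adjusted p = 0.0578) and passage-8 minus ventricle 0.41 (adjusted p = 0.223). The second of these passed under quantile normalization, with normexp background correction and on the authors' table, at up to 1.09. The rise was lost without either CD45-positive array or without passage-8 replicate 2 (adjusted p up to 0.0647), with the difference between 1.48 and 1.60. The difference from ventricle was lost without either CD45-positive array or ventricle replicate 2 (adjusted p up to 0.0842). The probe lies at chr6:58642312-58642371 in mm9.

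Abcb1a, the P-glycoprotein of the blood-brain barrier and of many capillaries, was at -1.78 and -1.42 on CD45-negative arrays, -1.46 and -1.59 on CD45-positive arrays, -3.34 and -3.03 on passage-8 arrays and 0.34 and 1.75 in ventricle. Ventricle was above every cell array and passage-8 cells below, while the primary cells overlapped. All 3 cell groups were lower than ventricle, by 6.26-fold, 5.94-fold and 18.8-fold (log2 differences -2.65, -2.57 and -4.23, SE 0.47, limma adjusted p = 0.0062, 0.00739 and 0.00121; here and below, 3 such values follow the order CD45-negative, CD45-positive, passage-8). The 2 ventricle arrays were 1.42 log2 units apart, and leaving out replicate 1 or 2 gave -3.35 or -1.94, -3.28 or -1.86, and -4.94 or -3.52; the CD45-positive call was also lost without CD45-positive replicate 2 (adjusted p = 0.0502). The fall from CD45-positive to passage-8 cells was at the edge of the test (log2 difference -1.66, SE 0.47, limma adjusted p = 0.0489) and was lost on leaving out any of the 6 cell arrays (adjusted p up to 0.19) and under 4 processing alternatives, normexp among them.

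Of 8 endothelial markers, 6 were lower than ventricle in each cell group, and their summed level was 66 to 75.3 in ventricle and 10.6 to 30.9 in the cells. Tie1 and Emcn were not above background on any CD45-negative or passage-8 array. The part of endothelial RNA in the ventricle level of Abcb1a was not tested.

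Abcb1b, the second mouse P-glycoprotein, behaved otherwise. It was at 0.62 and 0.43 on CD45-negative arrays, 0.56 and 0.80 on CD45-positive arrays, -0.99 and -1.18 on passage-8 arrays and -0.12 and 0.69 in ventricle. Only the passage-8 arrays were apart from the rest; the other 3 groups overlapped. Passage-8 cells were 3.41-fold below CD45-positive cells (log2 difference -1.77, SE 0.32, limma adjusted p = 0.0115), 3.06-fold below CD45-negative cells (adjusted p = 0.0256) and 2.59-fold below ventricle (adjusted p = 0.0158). The first call was lost without either CD45-positive array or passage-8 replicate 2 (adjusted p up to 0.0863), the second without CD45-negative replicate 1 or any CD45-positive or passage-8 array (up to 0.146) and the last without either passage-8 array or ventricle replicate 2 (up to 0.0815). Fitting the 2 groups alone ended the second and the last call.

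**Figure D3:**
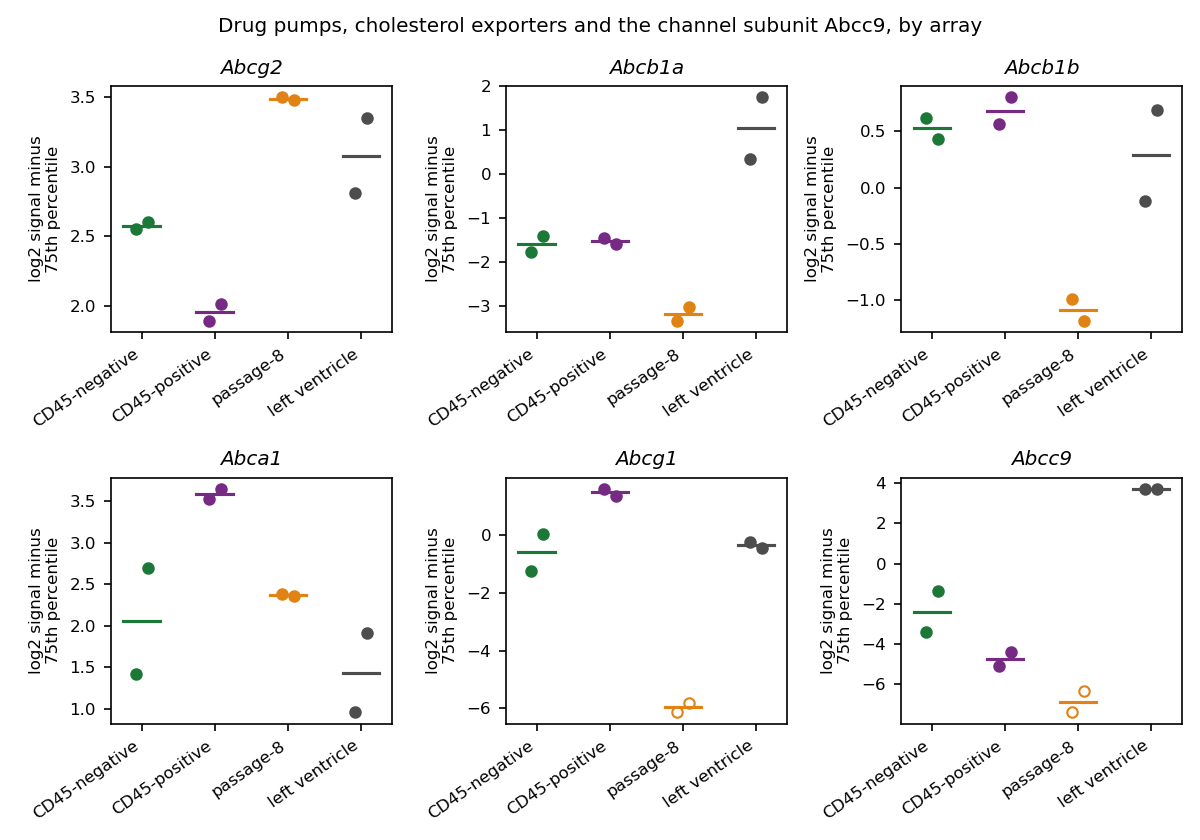
Log2 signal relative to the 75th percentile of the array (vertical axis, own scale per panel) for 6 members; each point is 1 array, bars are group means (n = 2), and open points mark groups not well above background on both arrays. Abcg2 is highest and Abcb1a and Abcb1b are lowest in passage-8 cells, Abca1 and Abcg1 are highest in CD45-positive cells, and Abcc9 is at 3.73 on both ventricle arrays.

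Abcg1 and Abca1 had their highest means in CD45-positive cells, while the other 3 sterol and lipid exporters above background did not. Abcg1, which loads cholesterol onto mature HDL, was 4.27-fold lower in CD45-negative cells and at least 132-fold lower in passage-8 cells. Abca1, which hands cholesterol to lipid-poor apolipoprotein A-I, was 4.42-fold higher in CD45-positive cells than in ventricle, and no comparison between cell groups passed. Both are textbook targets of the liver X receptors (LXR), nuclear receptors that bind paired repeats spaced by 4 bases (DR4). The Abca1 promoter is printed because its element can be read in it, with a relaxed DR4 (repeats of GGTNA in place of the full GGTCA) in capitals on either strand. The GC boxes, an E-box, spelled CACGTG, and the TATA box, spelled TATAAA, are in capitals too.

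Abca1, chr4:53159896-53160145, minus strand: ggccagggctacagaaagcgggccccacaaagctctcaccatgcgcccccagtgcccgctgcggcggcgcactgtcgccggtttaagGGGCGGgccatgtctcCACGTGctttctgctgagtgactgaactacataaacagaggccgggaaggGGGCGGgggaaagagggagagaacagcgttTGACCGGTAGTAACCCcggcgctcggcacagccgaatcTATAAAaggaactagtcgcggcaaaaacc

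Counted from the start site, the DR4 match is at -67, the TATA box at -29 and the E-box at -147. Of all 32851 windows, 0.621% hold the relaxed DR4, 6.02% the E-box and 12.4% the TATA box. Abca1 was the 1 member of 38 with a relaxed DR4 in its window. The stricter DR4 was in 0.0639% of windows and in 0 members.

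Abca1 was at 1.42 and 2.70 on CD45-negative arrays, 3.52 and 3.65 on CD45-positive arrays, 2.38 and 2.36 on passage-8 arrays and 0.96 and 1.91 in ventricle. The CD45-positive arrays were above all others, and the CD45-negative pair overlapped both passage-8 cells and ventricle. CD45-negative minus CD45-positive was -1.52 (SE 0.50, limma adjusted p = 0.0747) and passage-8 minus CD45-positive -1.21 (limma adjusted p = 0.131). The first was -0.88 without CD45-negative replicate 1 and -2.16 without replicate 2, where it passed (limma adjusted p = 0.023), as it did with normexp (0.0243). The second passed when the 2 groups were fitted alone. CD45-positive minus ventricle was 2.15 (SE 0.50, limma adjusted p = 0.0172), a call lost without either CD45-positive array or ventricle replicate 1 (adjusted p up to 0.09). The probe is at chr4:53043944-53044003 in mm9.

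Abcg1 was at -1.25 and 0.05 on CD45-negative arrays, 1.61 and 1.37 on CD45-positive arrays and -0.25 and -0.44 in ventricle. On both passage-8 arrays it was not well above background (measured at -6.14 and -5.80). CD45-positive cells were apart above, passage-8 cells apart below, and CD45-negative cells overlapped ventricle. CD45-negative minus CD45-positive was -2.09 (SE 0.44, limma adjusted p = 0.0215), a value of -1.45 without CD45-negative replicate 1 and -2.74 without replicate 2, and the call was lost without either CD45-positive array (adjusted p up to 0.122) and with the 2 groups fitted alone. A fold against a group with no array above background is a lower bound, set against the lowest signal well above background on each array or the probe's own where higher. Passage-8 cells were at least 132-fold below CD45-positive cells, at least 31.0-fold below CD45-negative cells and at least 37.0-fold below ventricle (limma adjusted p = 0.000529, 0.0021 and 0.0004). These 3 calls were kept with any 1 array left out, the fitted difference from CD45-negative cells being -6.02 or -4.72 without CD45-negative replicate 1 or 2. Fitted on the 2 groups alone, passage-8 against CD45-negative cells did not pass. CD45-positive cells were 3.57-fold above ventricle (limma adjusted p = 0.0187), lost without any CD45-positive or ventricle array (adjusted p up to 0.096).

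The 10 macrophage markers were all higher in CD45-positive cells than in either other cell group: CD45-negative and passage-8 cells lay below them with a median log2 difference of -6.84 and -8.49. CD45-negative replicate 2, with the larger macrophage sum (36.5 against 4.02), also had the higher Abcg1, Abca1 and Abcc3, by 1.29, 1.28 and 3.35 log2 units. The part of macrophage RNA in these levels was not tested.

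Of 24 other genes of cholesterol handling, 2 were higher and 8 lower in CD45-negative than CD45-positive cells. Over all genes tested, 11.2% were higher and 10.5% lower. The median difference of the list was -0.17 against 0.17 over all genes. The lower ones included the scavenger receptor Cd36 (log2 difference -7.58, with 1 CD45-negative array above background), the sterol hydroxylase Cyp27a1 (at least 4.4-fold), the ester hydrolase Nceh1 (-4.15) and the lysosomal exporter Npc1 (-2.90). Here and in the next comparison the macrophage markers moved too, as given above. Insig1, which retains the sterol sensor in the endoplasmic reticulum, and the phospholipid carrier Pltp were both higher by 1.33. In passage-8 against CD45-positive cells 2 were higher and 10 lower, where 12.6% of all genes were higher and 10.9% lower. The median of the list was -0.38 against 0.16 over all genes. The largest falls were of Cd36 (log2 difference -8.88, 1 passage-8 array above background), Apoe, an acceptor of exported cholesterol (-4.91), Ch25h, which makes an oxysterol (-4.25), and Mylip, an LXR target that degrades the LDL receptor (-4.06). Pltp and the cholesterol esterifier Lcat were higher, by 1.84 and 1.83. Nr1h3, the LXR alpha gene, differed from CD45-positive cells by -1.22 (CD45-negative) and -2.51 (passage-8; limma adjusted p = 0.0225 and 0.00222). Its levels move with the macrophage markers above.

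Abca7, a phospholipid exporter, was 2.20-fold higher in CD45-negative cells than in ventricle (log2 difference 1.14, SE 0.19, limma adjusted p = 0.00525). It was at 3.5 and 3.71 on CD45-negative arrays, 3.36 and 3.32 on CD45-positive arrays, 2.96 and 2.93 on passage-8 arrays and 2.44 and 2.50 in ventricle. The 4 groups did not overlap. The call did not pass under quantile normalization, centring on genes above background everywhere or normexp, among others.

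Abcg5, whose protein pairs with Abcg8 to secrete plant sterols in gut and liver, rose above background on the passage-8 arrays alone, at -4.74 and -4.88. It was at least 1.45-fold above CD45-positive cells and at least 1.11-fold above ventricle (limma adjusted p = 0.00541 and 0.0123). Against CD45-negative cells it passed (limma adjusted p = 0.0218) but the bound gave no fold. Abcg8 was not well above background on any array. With normexp the Abcg5 difference turned to -0.54 against CD45-negative cells and -0.06 against ventricle and passed in none of the 3, so its direction depends on the background correction. Leaving out either passage-8 or either CD45-positive array ended the call against CD45-negative cells (adjusted p up to 0.105), and leaving out passage-8 replicate 1 or ventricle replicate 1 that against ventricle (up to 0.0629).

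Both sulphonylurea receptors, the regulatory subunits of ATP-sensitive potassium channels, were far higher in ventricle. Abcc9 (SUR2, the subunit of cardiac and vascular muscle) was 70.1-fold lower in CD45-negative cells, 364-fold lower in CD45-positive cells and, after passage, at least 624-fold lower (limma adjusted p = 0.00137, 0.000507 and 0.000266). Its levels were 3.73 and 3.73 in ventricle, -3.41 and -1.39 on CD45-negative arrays and -5.12 and -4.43 on CD45-positive arrays. On the passage-8 arrays it was not well above background (-7.41 and -6.35). No 2 groups overlapped. Among cells the difference of 2.38 between CD45-negative and CD45-positive cells did not pass (SE 0.72, limma adjusted p = 0.0597). It passed with normexp (1.58), with quantile normalization (2.29), on the authors' table (1.53) and with a replicate block (limma adjusted p = 0.0134, 0.0264, 0.0127 and 0.032). Without CD45-negative replicate 1 it was 3.39 and passed (adjusted p = 0.0153), and without replicate 2 it was 1.37 and did not. Passage-8 cells were at least 8.9-fold below CD45-negative cells (limma adjusted p = 0.0144), which was lost without passage-8 replicate 1 (adjusted p = 0.0672) and when the 2 groups were fitted alone. The 2 CD45-negative arrays were 2.03 log2 units apart, so the fitted differences were -5.49 or -3.47 from passage-8 cells, and -5.12 or -7.14 from ventricle, without replicate 1 or 2.

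Abcc8 (SUR1, the subunit of pancreatic beta cells and of mouse atrial muscle) was at 3.74 and 3.58 in ventricle, -0.74 and -0.77 on CD45-negative arrays, -1.38 and -1.23 on CD45-positive arrays and -1.35 and -1.48 on passage-8 arrays. The cells lay 21.4-fold, 31.4-fold and 33.8-fold below ventricle (log2 differences -4.42, -4.97 and -5.08, SE 0.20, limma adjusted p = 0.000109, 9.45e-05 and 8.51e-05). A second Abcc8 probe, which overlaps the first, read 4.20 and 4.11 in ventricle and gave differences of -8.78 (CD45-positive) and -9.01 (passage-8), so there the probes agree in direction but not in size. Its CD45-negative arrays were not well above background.

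The pore genes went the same way. Kcnj8 was at least 40.5-fold, 85.7-fold and 99.5-fold lower in the 3 cell groups than in ventricle, and Kcnj11 at least 49.9-fold and 106-fold lower in the primary cells. In passage-8 cells the Kcnj11 difference was -7.11 (limma adjusted p = 0.00677), where 1 array was above background. All 8 cardiomyocyte markers were lower in each cell group, with medians of -12.58, -13.07 and -12.78. Of the 8 smooth muscle and pericyte markers, Myh11 and Rgs5 were not above background on any cell array. Their summed level was 234 to 248 in CD45-negative cells, 75.2 to 76.5 in CD45-positive cells, 187 to 189 in passage-8 cells and 105 to 130 in ventricle. The part of muscle RNA in the channel genes was not tested.

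Of 8 exporters of organic anions and conjugates, 5 were tested. Abcc3, which exports bile salts and glucuronides, showed the widest differences. It was at 3.36 and 3.42 on CD45-positive arrays, -2.02 and -1.88 on passage-8 arrays and -0.89 and -1.31 in ventricle. The CD45-negative arrays read -2.24 and 1.11 and so spanned the passage-8 and ventricle values. CD45-positive cells were 40.6-fold above passage-8 cells (passage-8 minus CD45-positive -5.34, limma adjusted p = 0.0134), 22.6-fold above ventricle (adjusted p = 0.0146) and 15.6-fold above CD45-negative cells (adjusted p = 0.0362). The last difference was -2.28 without CD45-negative replicate 1 and -5.64 without replicate 2, and its call was lost without any other 1 array (adjusted p up to 0.169), without the filter on dim probes and with the 2 groups fitted alone. The first was lost without either CD45-positive array (up to 0.0796) and the second without any CD45-positive or ventricle array (up to 0.0793).

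Abcc4, which exports cyclic nucleotides and prostanoids, was lower in passage-8 cells, with log2 differences of -1.14 from CD45-positive cells and -1.45 from ventricle (SE 0.31, limma adjusted p = 0.0407 and 0.0116). It was at -0.40 and -0.37 on passage-8 arrays against 0.37 to 1.20 on the other 6 arrays. Abcc10, a drug and conjugate pump, was higher there, at 1.81 and 1.78 against 0.44 to 1.41 elsewhere, 2.21-fold above CD45-positive cells and 2.19-fold above ventricle (limma adjusted p = 0.0169 and 0.0101). Abcc5, a cyclic nucleotide pump, was 2.01-fold higher in passage-8 cells than in ventricle (limma adjusted p = 0.0128) on the probe with 10 spots, and none of its other 3 probes passed there. Abcc1, the glutathione-conjugate pump, passed in none of the 6 comparisons, at 2.76 and 2.45, 2.54 and 2.66, 2.17 and 2.04, and 1.41 and 1.87 in CD45-negative, CD45-positive, passage-8 cells and ventricle. Each of the 5 calls in this paragraph was lost without 1 or more single arrays: either passage-8 array for all, either CD45-positive array for the 2 calls against those cells, either ventricle array for Abcc4 against CD45-positive cells, ventricle replicate 2 for Abcc4 and Abcc5 against ventricle and ventricle replicate 1 for Abcc10 against ventricle. Their adjusted p reached 0.183. Abcc5 also missed under quantile normalization and on the authors' table, and Abcc5 and Abcc10 against ventricle when arrays were centred on genes above background everywhere.

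Of 20 genes of drug and oxidant response and glutathione, 19 were tested in passage-8 against CD45-positive cells. Of these, 4 were higher and 3 lower, where 12.6% of all genes were higher and 10.9% lower. Gstt1, a glutathione transferase, rose by 2.78 log2 units, the xenobiotic sensor Ahr by 2.35 and the oxygen-regulated transcription factor gene Hif1a by 1.62. The quinone reductase Nqo1 fell by 2.50. The median was -0.38 against 0.16 over all genes.

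**Figure D4:**
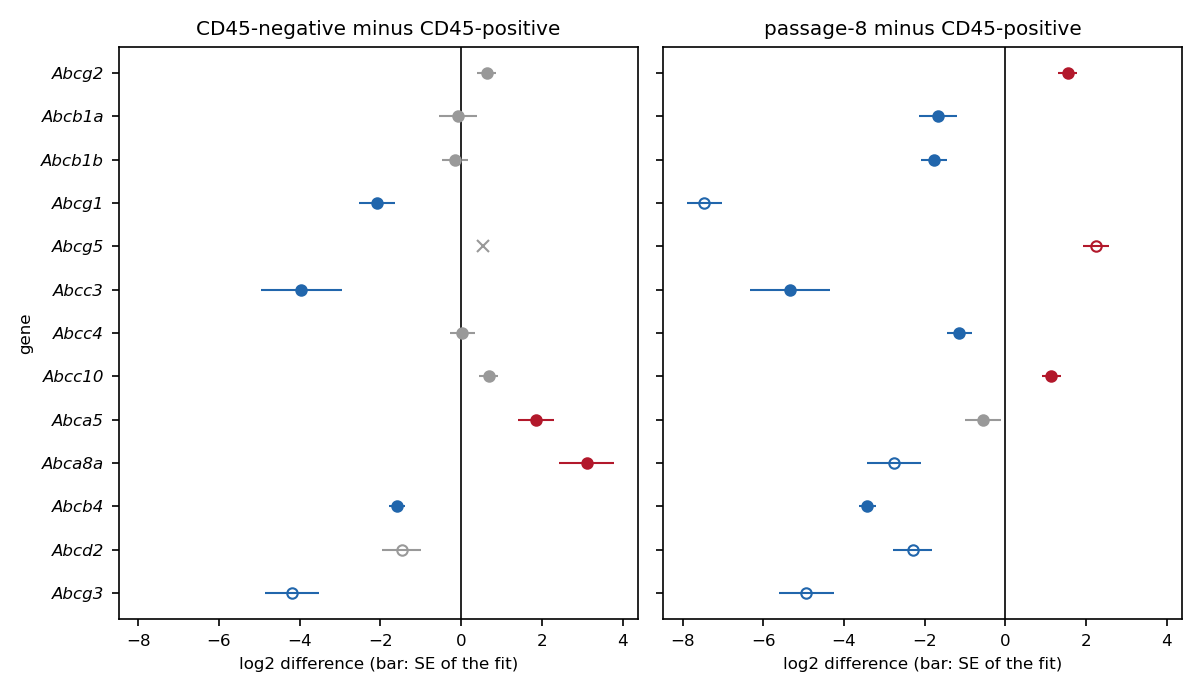
Log2 difference from CD45-positive cells (horizontal axis, bars are SE of the fit) for 13 members that passed in either comparison, in CD45-negative cells (left) and passage-8 cells (right). Red and blue mark higher and lower genes that passed, grey those that did not, open points a group with no array above background and a cross a gene not tested. Abcb4, Abcg1, Abcc3 and Abcg3 are blue in both panels, which share the CD45-positive arrays.

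Among the 14 other members of subfamily A, 5 lie in a row on chromosome 11, and 2 of these were higher in CD45-negative than CD45-positive cells. In order of mm9 probe position the row is Abca8b (chr11:109795589-109795648), Abca8a (chr11:109945491-109945550), Abca9 (chr11:109962136-109962195), Abca6 (chr11:110041564-110041623) and Abca5 (chr11:110130963-110131022), all on the minus strand. They are lipid transporters of the ABCA6-like group. Abca8a was 8.62-fold and Abca5 3.61-fold higher in CD45-negative than CD45-positive cells, the 2 members higher in that comparison, where 11.2% of all genes were higher.

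Abca8a was at 0.82 and -1.07 on CD45-negative arrays, -3.22 and -3.24 on CD45-positive arrays and 0.20 and -0.88 in ventricle. On both passage-8 arrays it was not well above background (-6.23 and -5.75). CD45-negative cells overlapped ventricle and lay above both other cell groups. The difference from CD45-positive cells was 3.11 (SE 0.68, limma adjusted p = 0.0236), 2.16 without CD45-negative replicate 1 and 4.05 without replicate 2. It was lost without either CD45-positive array (adjusted p up to 0.131) and with the 2 groups fitted alone. CD45-positive cells were 7.41-fold below ventricle (limma adjusted p = 0.0172), lost without either CD45-positive array or ventricle replicate 1 (up to 0.0928). Passage-8 cells were at least 43.2-fold below CD45-negative cells, at least 37.2-fold below ventricle and at least 5.01-fold below CD45-positive cells (limma adjusted p = 0.00575, 0.0015 and 0.0309). The last was lost without any passage-8 or CD45-positive array (up to 0.138) and with normexp, and the fitted first difference was -4.93 or -6.82 without CD45-negative replicate 1 or 2. With the 2 groups fitted alone the first did not pass.

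Abca5, found in lysosomes and late endosomes, was at 0.24 and -1.05 on CD45-negative arrays, -2.46 and -2.05 on CD45-positive arrays, -2.93 and -2.70 on passage-8 arrays and -0.30 and 0.11 in ventricle. It was higher in CD45-negative than CD45-positive cells by 1.85 log2 units (SE 0.45, limma adjusted p = 0.033) and its second probe gave 2.31. CD45-positive and passage-8 cells differed from ventricle by -2.16 and -2.72 (limma adjusted p = 0.0119 and 0.00491), and passage-8 from CD45-negative cells by -2.41 (adjusted p = 0.0228). Without CD45-negative replicate 1 or 2 the first difference was 1.21 or 2.49 and the last -1.77 or -3.05. The first call was lost without any array of the other groups (adjusted p up to 0.168), and the last without any CD45-positive or passage-8 array (up to 0.0953); neither passed with the 2 groups fitted alone. The CD45-positive call against ventricle was lost without CD45-positive replicate 1 or ventricle replicate 2 (up to 0.0721).

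Abca8b was at 1.99 and 0.38 on CD45-negative arrays, -0.01 and 0.09 on CD45-positive arrays, -0.84 and -0.82 on passage-8 arrays and 0.33 and 0.14 in ventricle. Passage-8 cells were 4.03-fold below CD45-negative cells at the edge of the test (limma adjusted p = 0.0499), -1.21 or -2.81 without CD45-negative replicate 1 or 2, and the call was lost without any array of the other groups (adjusted p up to 0.187). Abca9 passed in no comparison, with CD45-negative arrays at 0.56 and -1.79. On CD45-negative replicate 1 the 4 genes Abca5, Abca8a, Abca8b and Abca9 were all higher than on replicate 2, with replicate 2 minus replicate 1 at -1.28, -1.89, -1.61 and -2.35. The fifth gene of the row, Abca6, went the other way. It was at -6.74 on replicate 1, not above background, and at -3.12 on replicate 2. Abca6 was above background on both arrays only in ventricle (-2.63 and -2.63), at least 6.58-fold above CD45-positive and 7.59-fold above passage-8 cells (limma adjusted p = 0.0242 and 0.027). Those 2 calls were lost without either ventricle or CD45-positive array, the second also without passage-8 replicate 1, and the fitted second difference was -3.55 or -5.11 without passage-8 replicate 1 or 2. Of 9 fibroblast markers, 6 were higher in CD45-negative than CD45-positive cells and 5 lower in passage-8 than in CD45-negative cells, and their summed level was 1470 to 1560, 614 to 641 and 1060 in the 3 cell groups and 281 to 430 in ventricle. The part of fibroblast RNA in the chromosome 11 genes was not tested.

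**Figure D5:**
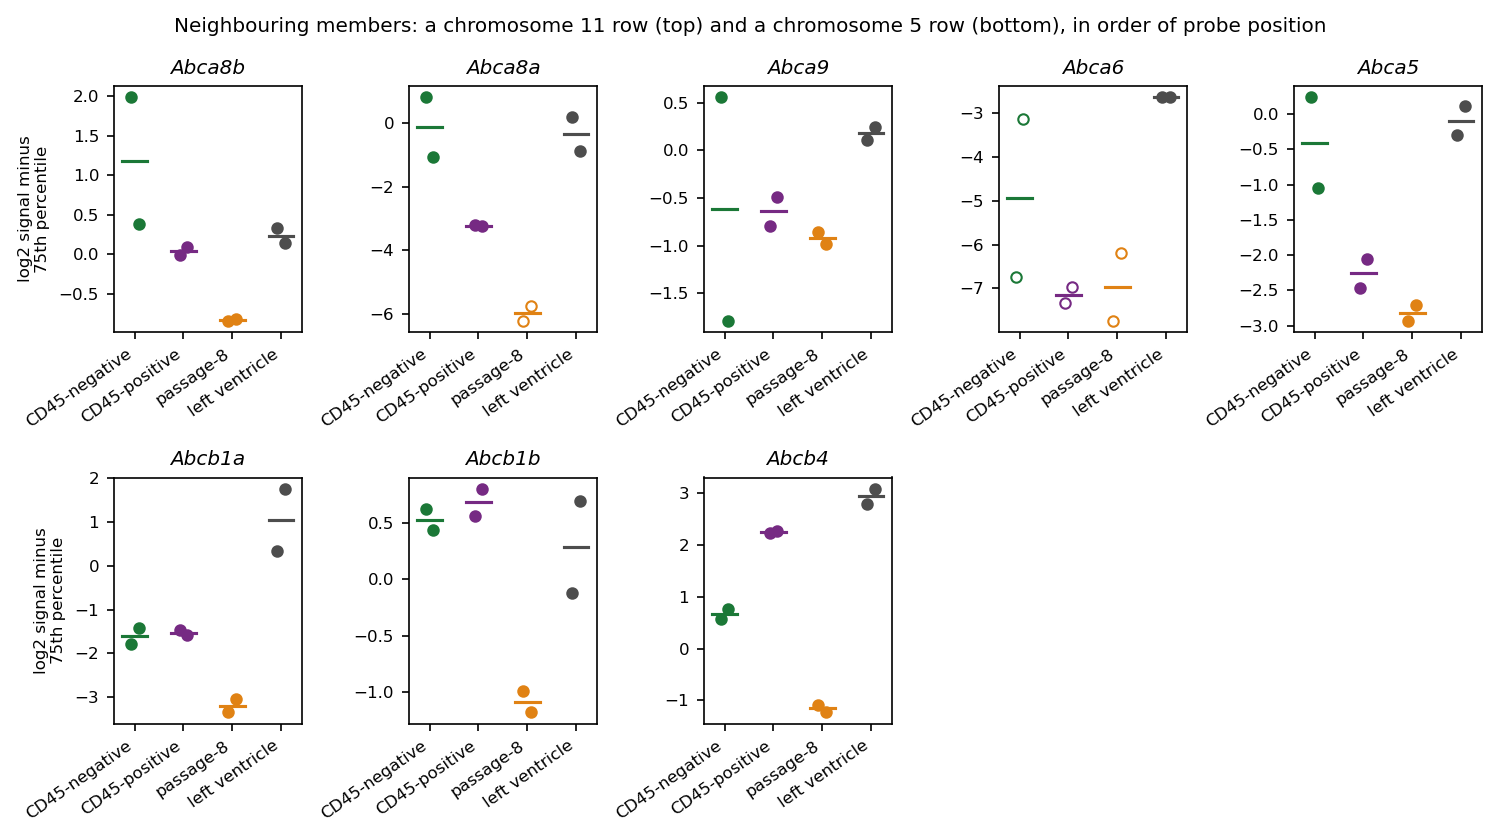
Log2 signal relative to the 75th percentile of the array (vertical axis, own scale per panel) for neighbouring members in order of probe position; points are arrays, bars group means (n = 2), and open points mark groups not above background on both arrays. CD45-negative replicate 1 (left point) lies above replicate 2 in Abca8b, Abca8a, Abca9 and Abca5 and below it in Abca6. Passage-8 cells are lowest in all 3 genes of the chromosome 5 row.

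Elsewhere in subfamily A the calls of the brightest probes were against ventricle. Abca2, a sterol and lipid transporter of lysosomes, was at 1.17 and 1.37 in ventricle and lower in CD45-negative cells (-0.68 and -0.47, log2 difference -1.85) and in CD45-positive cells (0.04 and 0.32, difference -1.09; limma adjusted p = 0.0014 and 0.00981). The second call was lost without CD45-positive replicate 1 or ventricle replicate 2 (adjusted p up to 0.0785). A second, dimmer Abca2 probe, above background on all 8 arrays, also passed between cells, at -1.6 in CD45-negative against CD45-positive cells and 1.8 in passage-8 against CD45-negative cells, and did not pass in CD45-positive cells against ventricle (-0.83). Abca3, the phospholipid transporter of lamellar bodies, was 2.17-fold higher in CD45-positive and 2.03-fold higher in passage-8 cells than in ventricle (limma adjusted p = 0.0332 and 0.0422), calls lost without any CD45-positive, passage-8 or ventricle array (up to 0.155). It was at 4.05 and 4.11, 3.97 and 4.01, and 2.84 and 3.09 in those groups and at 3.40 and 2.55 on CD45-negative arrays.

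Abca12, the keratinocyte ceramide transporter, was above background on both arrays only in ventricle (-2.80 and -2.42). The CD45-negative mean was at least 3.14-fold and the CD45-positive mean at least 6.68-fold lower (limma adjusted p = 0.0112 and 0.00571). The passage-8 mean, with 1 array above background, was 8.55-fold lower (limma adjusted p = 0.0251). Without passage-8 replicate 1 or 2 that difference was -1.82 or -4.37; it was lost without either ventricle array (up to 0.112), and the CD45-negative call without CD45-negative replicate 1 or ventricle replicate 2 (up to 0.0662) and with normexp, where it was -0.6. Abca4, the retinoid flippase of photoreceptors, was at -1.62 and -1.97 in ventricle and at least 11.7-fold lower in CD45-positive and 13.6-fold lower after passage (limma adjusted p = 0.0298 and 0.0405). Those calls were lost without any CD45-positive or ventricle array, the second also without either passage-8 array (up to 0.151). The fitted first difference was -3.71 or -5.42 without CD45-positive replicate 1 or 2.

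The phospholipid flippase Abcb4, which supplies phosphatidylcholine to bile, separated all 3 cell groups on its brightest probe. It lies next to the P-glycoproteins in the order Abcb1a (chr5:8748075-8748134), Abcb1b (chr5:8865925-8865984) and Abcb4 (chr5:8959108-8959167) in mm9, all on the plus strand. It was at 0.58 and 0.76 on CD45-negative arrays, 2.24 and 2.28 on CD45-positive arrays, -1.08 and -1.23 on passage-8 arrays and 2.80 and 3.09 in ventricle, and no groups overlapped. Passage-8 cells lay far below CD45-positive cells and 17.2-fold below ventricle (log2 differences -3.42 and -4.10, SE 0.21, limma adjusted p = 0.000579 and 0.000139), calls kept with any 1 array left out. CD45-negative cells were 3.01-fold below CD45-positive cells (adjusted p = 0.00593, limma) and 4.84-fold below ventricle (adjusted p = 0.000661), and passage-8 cells 3.55-fold below CD45-negative cells (adjusted p = 0.00588). The first of these was lost without either CD45-positive array (up to 0.0652) and the last without passage-8 replicate 2 (0.0542) and when the 2 groups were fitted alone. CD45-positive minus ventricle was -0.69, short of the minimum of 1. A second, dimmer Abcb4 probe was above background in CD45-positive cells and ventricle only. It gave -3.45 in CD45-negative and -4.59 in passage-8 against CD45-positive cells, and both passed. Between passage-8 and CD45-negative cells it was not tested. The 3 genes thus had their lowest level in passage-8 cells, while their order among the other groups differed.

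Half-transporters of mitochondria and lysosomes were lower in the cells than in ventricle. Abcb8 and Abcb10 serve mitochondrial iron and haem, Abcb6 handles porphyrins, and Abcb9 pumps peptides into lysosomes. Abcb6, Abcb8 and Abcb9 were lower in all 3 cell groups and Abcb10 in CD45-positive and passage-8 cells.

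Abcb8 was at 4.58 and 4.17 in ventricle, 1.54 and 1.57 on CD45-negative arrays, 2.58 and 2.51 on CD45-positive arrays and 2.66 and 2.64 on passage-8 arrays. It lay 7.10-fold, 3.56-fold and 3.31-fold below ventricle (log2 differences -2.83, -1.83 and -1.72, SE 0.22, limma adjusted p = 0.000396, 0.00159 and 0.00188), kept with any 1 array left out; the mean of all 3 probes gave -1 in passage-8 cells, which did not pass. Passage-8 cells were 2.15-fold above CD45-negative cells (limma adjusted p = 0.0271), lost without any CD45-positive or passage-8 array (adjusted p up to 0.165); a second probe gave a difference of 2.37 there and one of -2.29 between CD45-negative and CD45-positive cells, where the first gave -1.

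Abcb9 was at 3.38 and 2.52 in ventricle and between -0.63 and 0.78 on the 6 cell arrays. It was 8.51-fold, 4.61-fold and 6.62-fold lower in the 3 cell groups (limma adjusted p = 0.00239, 0.00865 and 0.00382), the second lost without either CD45-positive array (adjusted p up to 0.0519). Abcb6 was at 1.67 and 1.15 in ventricle and between -0.61 and 0.08 in the cells, 2.97-fold, 3.78-fold and 2.56-fold lower (limma adjusted p = 0.00438, 0.00228 and 0.00766). Ventricle was the highest group for both genes and did not overlap the cells.

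Abcb10 was at 3.17 and 2.62 in ventricle, 2.44-fold above CD45-positive and 2.32-fold above passage-8 cells (limma adjusted p = 0.00953 and 0.0113), lost without either array of the cell group (adjusted p up to 0.0655) and, for the second, without ventricle replicate 1. In CD45-negative cells, at 2.61 and 2.37, it differed from ventricle by -0.41 and did not pass.

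Of 10 other genes of haem and iron-sulphur assembly, 4 were lower and 1 higher than ventricle in each cell group. Over all genes tested, 19.2%, 19.8% and 18.8% were lower and 20.3%, 18.3% and 20.3% higher. The medians of the list were -0.98, -0.95 and -0.92 against 0.06, -0.02 and 0.05 over all genes. The differences of the cysteine desulphurase Nfs1 were -2.05, -1.59 and -1.98. The cardiomyocyte sum of 3640 to 4370 in ventricle stands beside all these differences, and its part in them was not tested.

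In subfamily D, Abcd3, the peroxisomal importer of branched and dicarboxylic acids, was at 4.55 and 4.55 in ventricle, 3.59 and 3.59 on CD45-negative arrays, 3.54 and 3.49 on CD45-positive arrays and 3.20 and 3.14 on passage-8 arrays. It was 2.05-fold lower in CD45-positive and 2.60-fold lower in passage-8 cells than in ventricle (limma adjusted p = 0.00654 and 0.00224), the first lost without either CD45-positive array (adjusted p up to 0.0612), with normexp and on the authors' table. Abcd4, which serves lysosomal vitamin B12 export, was 2.22-fold higher in CD45-positive cells than in ventricle (limma adjusted p = 0.00791; lost without CD45-positive replicate 2, 0.0721). Abcd2 was near background, and in passage-8 cells at least 2.06-fold below the CD45-positive mean (limma adjusted p = 0.0194), a call lost without any array of those 2 groups (up to 0.108), under quantile normalization, normexp and the authors' table. Of 11 other peroxisomal genes, 7, 6 and 5 were lower and 1, 0 and 1 higher than ventricle in the 3 cell groups, where 19.2%, 19.8% and 18.8% of all genes were lower and 20.3%, 18.3% and 20.3% higher. Their medians were -1.16, -1.11 and -0.85, against 0.06, -0.02 and 0.05 over all genes. Ehhadh, of peroxisomal beta-oxidation, was lower in each, with differences of -2.94, -1.82 and -2.01.

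The 4 soluble members of translation, Abce1 (ribosome recycling) and Abcf1, Abcf2 and Abcf3 (initiation and stress control), passed in 0 of the 6 comparisons (limma; 3 of 24 tests had an unadjusted p under 0.05, all of 1 gene), and log2 differences ran from -0.99 to 0.80. The nearest was Abcf2 in CD45-negative cells, with differences of -0.99 from ventricle (limma adjusted p = 0.014) and -0.89 from CD45-positive cells (limma adjusted p = 0.0348), short of the minimum of 1. Of 7 partner genes of translation, 2 were higher in CD45-negative than CD45-positive cells (Gcn1 by 1.21 and the release factor Gspt1 by 1.0) and 0 lower, where 11.2% of all genes were higher. A second, dimmer Abcf1 probe gave -1.93 between CD45-negative and CD45-positive cells and passed, where the first gave -0.09. It also passed in passage-8 against CD45-negative cells (2.09) and in CD45-negative cells against ventricle (-2.12). The 2 probes of that gene thus disagree, and the 0 above holds for the brightest probes. Abcg4, a sterol exporter of nerve cells, did not pass with its brightest probe. A second gave 1.90 between CD45-negative and CD45-positive cells and passed, where another gave 0.87 and did not. The second also passed in passage-8 against CD45-positive cells (1.48), and against ventricle in CD45-negative (2.15) and passage-8 cells (1.73).

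Abcg3, a rodent relative of Abcg2, was above background only in CD45-positive cells, at -1.92 and -2.25. It was at least 4.5-fold above CD45-negative cells, at least 11.1-fold above passage-8 cells and at least 7.32-fold above ventricle (limma adjusted p = 0.00951, 0.00479 and 0.00256). The last 2 were kept with any 1 array left out, the fitted passage-8 difference being -4.01 or -5.86 without passage-8 replicate 1 or 2. The first was lost without either CD45-positive array (adjusted p up to 0.0687) and with normexp.

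The peptide pump Tap1, an ABC protein outside the naming rule that loads class I molecules, differed by -2.41 between CD45-negative and CD45-positive cells (SE 0.40, limma adjusted p = 0.011). Of 8 genes of that pathway, 6 were lower in CD45-negative cells and 5 after passage, both against CD45-positive cells, and 0 were higher, where 10.5% and 10.9% of all genes were lower. Their medians were -2.33 and -1.73, against 0.17 and 0.16 over all genes. The part of macrophage RNA in these levels was not tested. H2-D1 differed by -3.51 and -4.03 and Psmb9, an immunoproteasome subunit, by -3.34 and -2.11. Tap2 and Cftr, the other 2 ABC proteins with names of their own, passed in 0 comparisons.

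The remaining members gave little signal. Abca13, Abca14, Abca15, Abca16, Abcb5, Abcb11, Abcc2, Abcc6, Abcc12 and Abcg8 were well above background on both arrays of no group and were tested in no comparison. Single arrays were above background for some: Abcc12 read -1.21 on CD45-negative replicate 2, where every other array was at -5.23 or below, and Abca15 read -1.95 on the same array. Neither gene's other probe rose there: the other Abca15 probe was at -6.01, and the other Abcc12 probes at -5.84 and -6.04.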

How the data were processed

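Scanner files deposited for the series give an intensity per spot for 8 arrays (Feature Extraction 10.7 in the submitters' processing notes), background-subtracted within each array per the file headers. The deposited value table holds log2 values whose tool and scaling are not given in the sources used here; its column medians run from 6.087 to 6.094. Control spots (3671 of 62976) and outlier spots (167 to 248 per array) were left out. No spot was saturated. Spots of a probe were averaged, values were taken as log2 of the processed signal minus the array's 75th percentile, and the brightest of several probes of a gene was used (18 of 50 members have several). RefSeq accessions matched 27235 of 55681 probes. All 8 arrays entered 1 limma fit (3.58.1, R 4.3.3, lmFit and eBayes, 4 residual and 5.878 total degrees of freedom), tested on simulated data; SEs rest on the pooled spread. All p-values are two-sided. An exact permutation of 2 against 2 cannot go below 0.333 and was not used. Coordinates of probes are mm9, per the file headers; whether a probe lies in an exon or UTR was not analysed here. Members and gene lists were chosen with earlier results of these data known. Some members and list genes are counted but not reported here by name. Named were the 6 genes Abcg2, Abcb1a, Abcb1b, Abca1, Abcg1 and Abcc9, other members that passed, and up to 4 genes per direction of each list. Promoter windows come from RefSeq. Alternatives covered normalization, background correction (normexp, offset 50), the authors' table, filters, probes, groups in the fit, the replicate block and each array left out.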

Additional observations from a re-analysis of the deposited data

How the results depend on the processing

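Of 86 passing results, 51 passed in every processing alternative run and 34 with any 1 array left out; 29 did both. Leaving out CD45-positive replicate 1 or 2 lost 38 and 39 calls, either passage-8 array 25, ventricle replicate 1 or 2 21 and 22, and CD45-negative replicate 1 or 2 3 and 2. Restricting to genes above background on all arrays left 4, 7, 5 and 14 passing members when CD45-negative cells were set against CD45-positive cells, passage-8 against CD45-positive cells, passage-8 against CD45-negative cells and passage-8 cells against ventricle, in place of 8, 13, 10 and 22; fewer genes were tested there. Fitting the 2 groups alone gave 3, 14, 0 and 22 in the same order (limma; where 0 passed, 17 members had an unadjusted p under 0.05). Over all genes, 1976, 6574, 181 and 9534 passed, in place of 4706, 5546, 3193 and 9450. Each such fit held the same number of samples, fewer than the main fit. Calls were lost where the CD45-negative pair, with the widest replicate gap (0.451 log2 units), was compared. The main fit pools the spread of all groups, and the part of this in the CD45-negative calls was not tested. With 1 array left out, where the lone array is assumed to vary like the other groups, the counts ran from 0 to 16, 4 to 13, 3 to 18 and 13 to 24 in those comparisons, and from 12 to 19 in CD45-negative and 8 to 22 in CD45-positive cells against ventricle. The count of 0 came without CD45-positive replicate 2 (limma; 11 at an unadjusted p under 0.05). Abcg5 reversed with normexp, to -0.54 against CD45-negative cells and -0.06 against ventricle; the cause was not tested. Normexp also shrank differences near background, for example Abca6 from -4.52 to -1.56 and Abcg3 from 4.83 to 1.55 in CD45-positive cells against ventricle. Replicate numbers are shared between groups but do not pair the samples: replicate gaps correlated from -0.2 to 0.19 over 18053 genes, and a replicate block gave 8, 12, 8, 12, 20 and 21 calls against 8, 13, 10, 12, 21 and 22. Centring on genes above background everywhere moved the median difference of all genes from 0.17 to 0.02 between the primary cells, and from 0.06 to -0.15 and 0.05 to -0.1 in CD45-negative and passage-8 cells against ventricle. Members near background have only bounds, and 2 arrays per group limit the precision of every value.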
